A study of Canis lupus familiaris with 25 samples.

Results

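The immunophenotype of 5 dogs with lymphoma is given as Unknown. The question addressed here is whether their tumours resembled the lymphomas of dogs labelled B-cell. The comparison takes the 5 Unknown dogs and the 6 dogs labelled B-cell whose sample names carry a sheet number of 13 or more, which gives 11 of the 25 dogs sequenced. These sheet numbers are all odd, so the 14 dogs that carry them are called the odd series, and 3 further dogs of that series labelled T-cell lymphoma served as the other reference. The remaining 11 dogs, all labelled B-cell, have sheet numbers from 1 to 12 and contain no Unknown dog. The labels do not say what the sheet number stands for.

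The tumours were naturally occurring, and each dog gave 1 fine needle aspirate of an enlarged lymph node, so the spread between samples is a spread between animals. All dogs of the 3 groups were sampled before CHOP, a combination of cyclophosphamide, doxorubicin, vincristine and prednisone, and a single earlier prednisone injection was allowed. The Unknown group holds 2 dogs with short survival (024A and 035A) and 3 with long survival (025A, 026A and 031A). The B-cell group holds 3 with short survival (027A, 029A and 030A) and 3 with long survival (033A, 034A and 037A). The T-cell group holds 1 dog with short survival (028A) and 2 with long survival (036A and 038A). An aspirate can hold other cells of the node beside tumour cells. A lower share of tumour cells and less RNA of a gene per tumour cell therefore cannot be told apart in these bulk libraries.

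Canine lymphoma most often presents in the lymph nodes and is divided by the lineage of the malignant lymphocyte. B cells carry a surface immunoglobulin receptor and mature in follicles, whereas T cells recognise antigen through the T-cell receptor and its CD3 complex. In practice the lineage is read by flow cytometry from surface proteins such as CD3 and CD5 on T cells and CD21 on B cells, and B-cell disease is the more common form in dogs. The tables name genes by Ensembl dog identifier, and 0 of the 32704 identifiers could be paired with a symbol here. The labels could therefore not be checked against lineage markers, no function is given for the genes named, and the groups are described by their expression patterns across genes.

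Total counts ranged from 13817680 to 25436325 in the Unknown dogs (median 19406949) and from 9592039 to 20685846 in the B-cell dogs (median 17086835). The mean totals differed by 2430000 counts, which was within the spread between dogs (exact permutation test, two-sided, n = 5 and 6, p = 0.387). This difference was 796000 without 035A, 1050000 without 029A and 3700000 without 026A. Dog 029A had the lowest total. Several libraries stood apart before any group comparison. The counts and the FPKM values of one dog should vary together across genes, and after centring of each gene they correlated between 0.907 and 0.96 in 12 dogs of the odd series. The correlation was 0.772 in the Unknown dog 024A and 0.293 in the B-cell dog 037A, whose counts were closer to the FPKM values of the Unknown dog 031A (r = 0.4) than to its own. Results are therefore also given without 024A and 037A. Among the labelled dogs, the expression of 038A (T-cell) and 029A (B-cell) sat apart from the other dogs of their label, as described next.

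Each dog was first placed on a scale that runs from 0, the mean of the B-cell dogs, to 1, the mean of the T-cell dogs. The scale used the 50 genes with the smallest p-value for higher counts in the T-cell dogs and the 50 for higher counts in the B-cell dogs. The Unknown dogs took no part in choosing these genes, and each labelled dog was scored with genes chosen without it. The Unknown dogs stood at 0.113 (024A), -0.0089 (025A), 0.0863 (026A), -0.0352 (031A) and 0.0907 (035A). All 5 lay at the B-cell end and far from the position of 1. The B-cell dogs stood at 0.0267 (027A), 0.492 (029A), 0.112 (030A), 0.0605 (033A), 0.101 (034A) and -0.0782 (037A). The Unknown and B-cell dogs interleaved, and 029A alone among the B-cell dogs reached almost midway between the labelled groups. The mean position was 0.0492 ± 0.0665 (SD, n = 5) in the Unknown dogs and 0.119 ± 0.195 (SD, n = 6) in the B-cell dogs. The difference of -0.0696 was within the spread between dogs (exact permutation test over 462 splits, two-sided, p = 0.604, smallest possible p = 0.00216). The positions were held fixed over the splits, and only the B-cell dogs had genes chosen without them. The p-values for positions are therefore approximate.

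**Figure D1:**
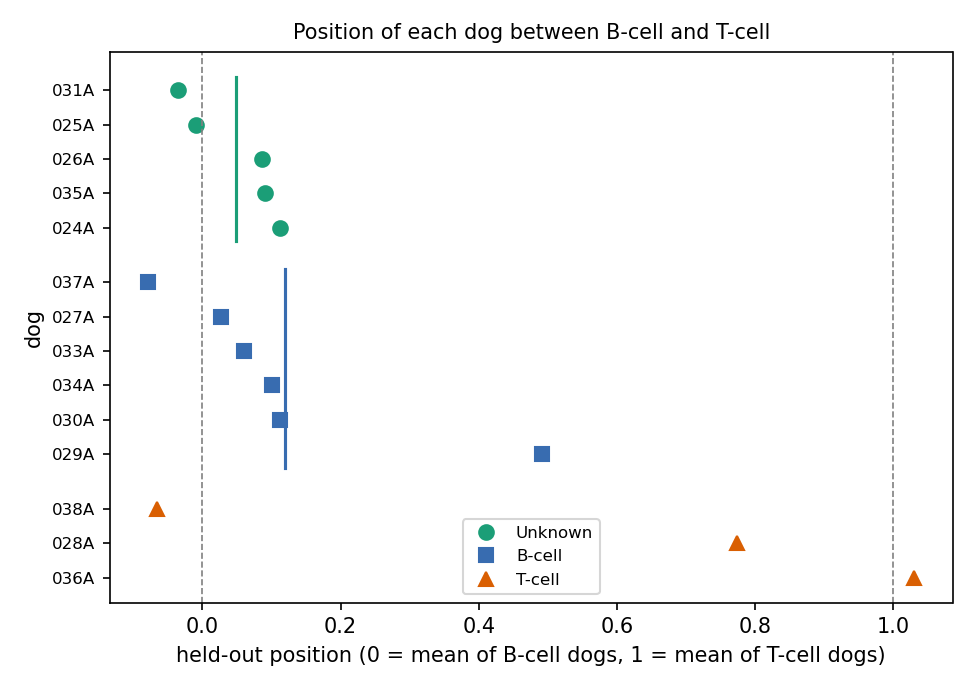
Held-out position of each of the 14 dogs of the odd series between the mean of the B-cell dogs (0) and of the T-cell dogs (1), with 1 point per dog, labelled by dog on the vertical axis, and vertical bars at the Unknown and B-cell means. The 5 Unknown dogs span -0.0352 to 0.113, within the B-cell span of -0.0782 to 0.492, and the T-cell dog 038A sits at -0.0648.

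The scale separated only part of the T-cell label. Dogs 028A and 036A were placed at 0.773 and 1.03, but 038A was placed at -0.0648 when it did not help to choose the genes. A position near 0 was thus also held by 1 of the 3 T-cell dogs, so it does not by itself tell an Unknown dog from a dog like 038A. When 038A was left out of the choice of genes altogether, the Unknown dogs spanned -0.147 to 0.011, the B-cell dogs -0.0926 to 0.349, and the T-cell dogs 028A and 036A stood at 0.519 and 0.704, each scored with genes chosen without it. When 028A was left out instead, 036A fell to 0.134 beside an Unknown highest of 0.12, and when 036A was left out, 028A fell to 0.113 beside an Unknown highest of 0.0889. The scale thus set 028A or 036A well apart from the Unknown dogs only where the other of the pair had helped to choose the genes. Without 024A and 037A the difference between Unknown and B-cell means was -0.14 (exact permutation test, two-sided, n = 4 and 5, p = 0.135, smallest possible p = 0.00794), and the 4 Unknown dogs left spanned -0.0079 to 0.0746. Genes chosen against the B-cell dogs with sheet numbers from 1 to 12 gave a difference of -0.308 (exact permutation test, two-sided, n = 5 and 6, p = 0.113), with the Unknown dogs further from the T-cell end. There the Unknown dogs spanned -0.545 to -0.0896 and the B-cell dogs of the odd series -0.516 to 0.485. Those genes were chosen between series as well as lineages, which cannot be told apart there. The study ties clusters of its samples to separate technicians, and which dogs belong to each is not given in the sources used here.

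The sides of the scale behaved differently in the Unknown dogs, a split that was added after the positions had been seen and carries no test. On the 50 genes higher in T-cell dogs, the Unknown dogs were nearer the B-cell mean than the T-cell mean for 47 genes in 024A, 47 in 025A, 48 in 026A, 50 in 031A and 47 in 035A. On the 50 genes higher in B-cell dogs, the same counts were 21 in 024A, 39 in 025A, 36 in 026A, 47 in 031A and 31 in 035A. Low levels of the T-cell genes were therefore shared by all 5 dogs. The share of B-cell genes nearer the B-cell mean ranged from nearly all in 031A to a minority in 024A. Fewer values lay inside the range of the B-cell dogs. For the B-cell genes these were 9 of 50 in 024A, 31 in 025A, 27 in 026A, 36 in 031A and 18 in 035A. For the T-cell genes they were 28 of 50 in 024A, 22 in 025A, 37 in 026A, 44 in 031A and 25 in 035A. The T-cell dog 038A, which helped to choose both sets, was itself nearer the B-cell mean for 34 of the 50 T-cell genes. Low levels of those genes thus do not by themselves tell the lineage. For the B-cell genes, 038A was nearer the B-cell mean for 0 of 50. Scored on the B-cell genes alone, where 0 is the B-cell mean and 1 the T-cell mean, 024A stood at 0.4, 025A at 0.16, 026A at 0.242, 031A at 0.00102 and 035A at 0.253. The B-cell dogs, each scored with genes chosen without it, spanned -0.142 to 0.36 on that side, and 4 of the 5 Unknown dogs fell within that span. On the T-cell genes alone the Unknown dogs spanned -0.131 to -0.0267 and the B-cell dogs -0.149 to 0.6. The T-cell dog 038A, scored with genes chosen without it, stood at -0.0499 on the T-cell genes, inside the Unknown span, and at -0.0869 on the B-cell genes.

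The genes called between the T-cell and B-cell dogs are described next, value by value. By edgeR's quasi-likelihood test with Benjamini-Hochberg adjustment, 8 of 20110 genes (0.0398%) passed an adjusted p of 0.05 between the 3 T-cell and the 6 B-cell dogs of the odd series, 7 higher and 1 lower in T-cell dogs. An unadjusted p under 0.05 was reached by 4158 genes (20.7%). The 8 genes in the 5 Unknown dogs give 40 values in CPM (counts scaled to library size, with TMM factors), and 34 of them lay nearer the B-cell than the T-cell median, 19 inside the B-cell range and 4 inside the T-cell range. Per dog, 6 of the 8 genes were nearer the B-cell median in 024A, 6 in 025A, 7 in 026A, 8 in 031A and 7 in 035A. This list depends on single dogs, since it grew to 2051 genes without 038A and to 27 without 029A, and shrank to 0 without any one of the other dogs.

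ENSCAFG00000013670, among the genes with the smallest p-value for higher counts in T-cell dogs, measured 11.9, 14.8 and 5.73 CPM in 028A, 036A and 038A. It measured 1.49 CPM in 024A, 0.667 in 025A, 1.4 in 026A, 0.99 in 031A and 0.77 in 035A, and between 0.881 and 1.6 CPM (median 1.22) in the B-cell dogs. The Unknown and B-cell dogs overlapped and both groups lay below every T-cell dog. The log2 fold change was 3.12 ± 0.38 (SE) for T-cell against B-cell dogs (edgeR, adjusted p = 0.0354) and -0.25 ± 0.34 for Unknown against B-cell dogs (edgeR, adjusted p = 0.716). ENSCAFG00000003432 showed a similar order, with 64.2, 57.1 and 37.7 CPM in the T-cell dogs, 1.07 to 7.48 (median 2.21) in the B-cell dogs and 0.767 to 2.81 in the Unknown dogs.

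ENSCAFG00000010034 measured 352, 461 and 102 CPM in T-cell dogs 028A, 036A and 038A, and between 7.74 and 27.3 (median 20) in the B-cell dogs. In the Unknown dogs it measured 11 CPM in 024A, 112 in 025A, 15.7 in 026A, 32.1 in 031A and 6.37 in 035A. Dog 025A alone reached the lowest T-cell value, and 031A lay just above the B-cell range. In FPKM no Unknown dog reached the T-cell range, with a highest Unknown value of 3.67 against a lowest T-cell value of 4.19. The log2 fold change was 4.01 ± 0.49 (SE) for T-cell against B-cell dogs (edgeR, adjusted p = 0.0354) and 0.79 ± 0.62 for Unknown against B-cell dogs (edgeR, adjusted p = 0.546).

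The remaining values inside the T-cell range belonged to a pair of genes that were picked out after their values were seen. ENSCAFG00000014361 measured 329, 182 and 20.1 CPM in T-cell dogs 028A, 036A and 038A, and 0.704 to 5.01 (median 1.73) in the B-cell dogs. It measured 60.4 CPM in 024A and 47.1 in 025A, against 1.33 in 026A, 1.72 in 031A and 0.556 in 035A. The Unknown dogs were split on this gene, with 024A and 025A above every B-cell dog and the other 3 at B-cell levels. The FPKM value of 024A was also high, at 15.6 against a B-cell range of 0.448 to 2.61. The difference between Unknown and B-cell dogs was 3.09 ± 1.06 (SE) on the log2 scale (edgeR, adjusted p = 0.381). ENSCAFG00000011068 measured 9.28 CPM in 026A and 1.05 to 2.2 in the other 4 Unknown dogs, beside 1.34 to 2.54 in the B-cell dogs and 6.76 to 24.6 in the T-cell dogs. In FPKM its groups were closer, at 4.31 to 11.8 in Unknown, 6.59 to 15.3 in B-cell and 19.1 to 44.4 in T-cell dogs.

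ENSCAFG00000037515 was the one gene called lower in T-cell dogs, at 0.836, 0.279 and 0.409 CPM in 028A, 036A and 038A against 4.78 to 14.6 (median 8.89) in the B-cell dogs. It measured 11.7 CPM in 025A and 10.7 in 031A, inside the B-cell range, but 1.29 in 024A, 3.2 in 026A and 1.41 in 035A. These 3 Unknown dogs fell in the gap between the labelled groups. The log2 fold change was -4.15 ± 0.57 (SE) for T-cell against B-cell dogs (edgeR, adjusted p = 0.0373) and -0.82 ± 0.55 for Unknown against B-cell dogs (edgeR, adjusted p = 0.498). ENSCAFG00000012294, next by p-value in that direction (edgeR, adjusted p = 0.0572), divided the Unknown dogs in the same way, with 8.13 CPM in 025A and 8.12 in 031A but 0.767 in 024A, 2.42 in 026A and 1.15 in 035A. Whether these genes share reads is not known, since how shared reads were counted is not given in the sources used here.

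**Figure D2:**
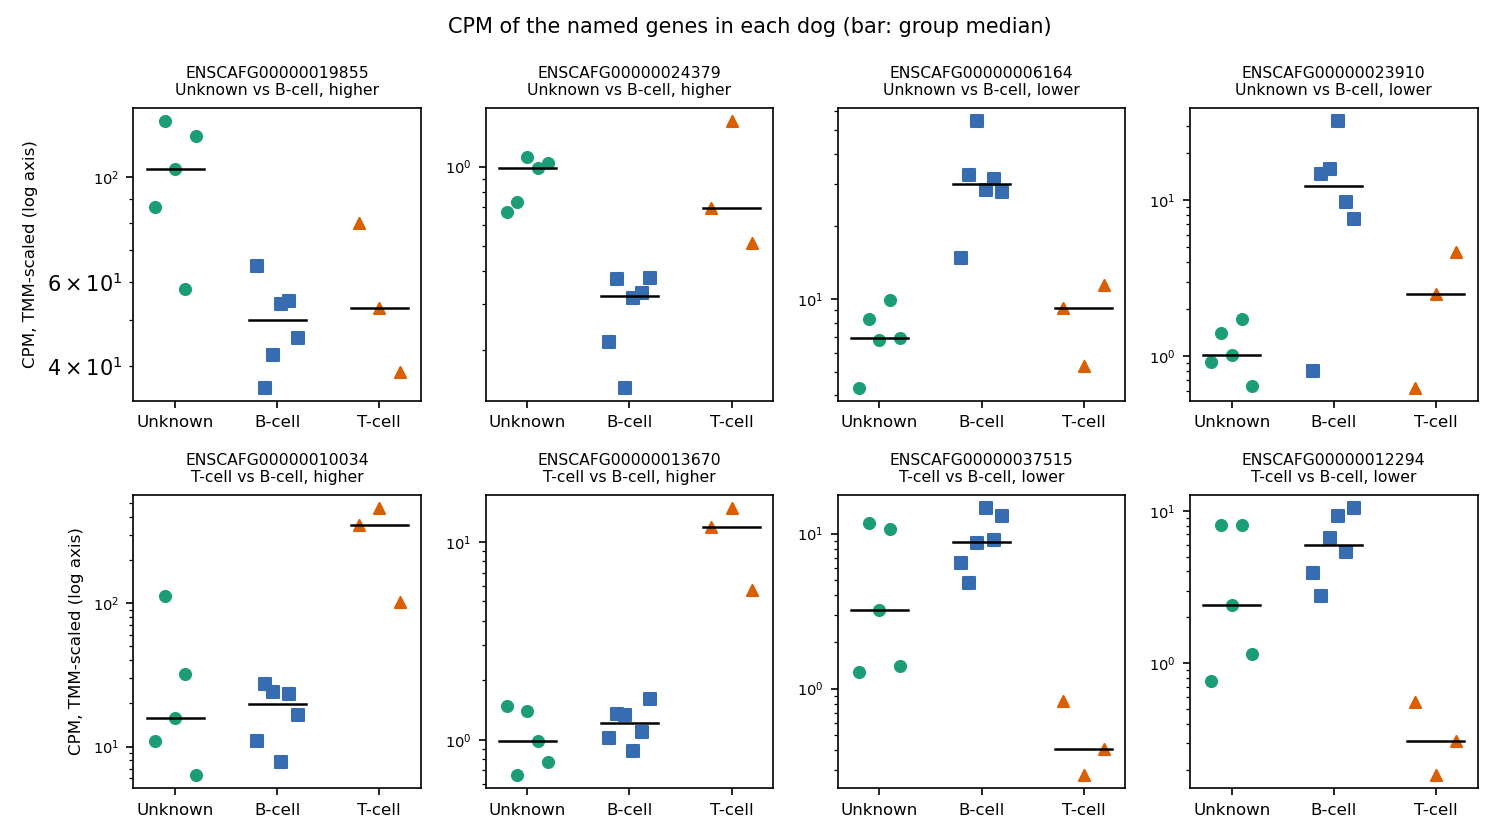
CPM (log axis) of the 2 genes of smallest p-value per direction for Unknown against B-cell dogs (upper row) and for T-cell against B-cell dogs (lower row), with 1 point per dog and bars at group medians. No gene of the upper row passed the adjusted threshold, and in the lower row the Unknown points lie inside or outside the B-cell range depending on the dog, with 025A at 112 CPM for ENSCAFG00000010034.

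The direct comparison of Unknown with B-cell dogs called no gene. Of 19040 genes tested with edgeR, 0 (0%) passed an adjusted p of 0.05, and the smallest adjusted p was 0.266. An unadjusted p under 0.05 was reached by 2382 genes (12.5%), 1133 of them higher and 1249 lower in the Unknown dogs. All 5 Unknown dogs lay above all 6 B-cell dogs for 130 genes (0.683%) and below them for 79 genes (0.415%). The median log2 fold change over all genes tested was -0.098, and 1329 genes (6.98%) differed by more than 1 on the log2 scale. DESeq2 called 26 genes, 3 higher and 23 lower, with 2552 at an unadjusted p under 0.05, and limma on log2(FPKM + 1) called 0, with 736 at an unadjusted p under 0.05. A count of 0 calls among 5 and 6 dogs does not show that the groups are alike.

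Left without 024A and 037A, edgeR again called 0 genes, and 1316 genes (6.99%) reached an unadjusted p under 0.05. The share of these that were higher in the Unknown dogs was 29.6%, compared with 47.6% in all 11 dogs and 22.2% in all 11 dogs after upper quartile scaling, which shifted the median log2 fold change by -0.134. The balance of higher and lower genes therefore depended on the scaling and on these dogs. Leaving out dog 027A gave 2 calls, both lower in the Unknown dogs, and leaving out any other dog gave 0.

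The genes nearest to a call were lower in the Unknown dogs. ENSCAFG00000006164 measured 4.31 CPM in 024A, 8.27 in 025A, 6.78 in 026A, 9.97 in 031A and 6.93 in 035A. The B-cell dogs measured 14.8 (027A) to 54.5 (030A) CPM, with a median of 29.9, and the groups did not overlap. The FPKM values did not overlap either, at 0.639 to 1.72 in Unknown and 2.12 to 11.4 in B-cell dogs. The difference was -2.22 ± 0.34 (SE) on the log2 scale (edgeR, adjusted p = 0.266), with an adjusted p of 2.47e-06 by DESeq2 and of 0.0352 by edgeR without 027A. The T-cell dogs, at 9.2, 5.31 and 11.4 CPM, lay at or near the Unknown level, and their difference from the B-cell dogs was -1.86 ± 0.45 (SE) on the log2 scale (edgeR, adjusted p = 0.0864).

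ENSCAFG00000023910 measured 0.911 CPM in 024A, 1.4 in 025A, 1.01 in 026A, 1.72 in 031A and 0.642 in 035A. Among the B-cell dogs, 027A measured 0.803 CPM, within the Unknown range, and the other 5 measured 7.61 to 32.2. The difference was -3.63 ± 0.68 (SE) on the log2 scale (edgeR, adjusted p = 0.381), with an adjusted p of 2.14e-05 by DESeq2 and of 0.0222 by edgeR without 027A. The T-cell dogs measured 0.627, 2.51 and 4.65 CPM, all below those 5 B-cell dogs. Both of these genes were named for their difference from the B-cell dogs, and on both the Unknown dogs were nearer the T-cell than the B-cell median.

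In the other direction, ENSCAFG00000019855 measured 86.5 CPM in 024A, 131 in 025A, 104 in 026A, 58.1 in 031A and 122 in 035A, against 36 to 64.9 (median 49.9) in the B-cell dogs. Only 031A overlapped the B-cell dogs, and the difference was 0.95 ± 0.2 (SE) on the log2 scale (edgeR, adjusted p = 0.381). The T-cell dogs measured 80.1, 52.9 and 38.8 CPM. ENSCAFG00000024379 was measured at a low level, 0.671 to 1.09 CPM in the Unknown and 0.144 to 0.376 in the B-cell dogs, and differed by 1.55 ± 0.33 (SE) on the log2 scale (edgeR, adjusted p = 0.381). Its groups did not overlap in CPM but did in FPKM, at 0 to 8.47 (median 6.6) in Unknown and 0 to 9.55 (median 0) in B-cell dogs. These highest FPKM values were those of 024A and 037A, whose counts and FPKM values disagree. Without 024A and 037A, the log2 differences of ENSCAFG00000019855, ENSCAFG00000006164 and ENSCAFG00000023910 were 0.95, -2.14 and -3.7, each with an adjusted p of 0.684 by edgeR. ENSCAFG00000024379 was not among the genes tested there.

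Compared with the T-cell dogs, the Unknown dogs differed at 401 of 18077 genes (2.22%), 53 higher and 348 lower (edgeR, adjusted p under 0.05), and 4133 genes (22.9%) reached an unadjusted p under 0.05. The share of genes past 1 on the log2 scale was 26% here, 27% for T-cell against B-cell dogs and 6.98% for Unknown against B-cell dogs. These comparisons share dogs and differ in their numbers (5 and 3, 3 and 6, and 5 and 6), so they are set side by side with no test between them. The count of 401 was not stable to single dogs. It was 2 without 024A, 9 without 025A, 7 without 026A, 0 without 031A, 6 without 035A, 102 without 028A, 7 without 036A and 2503 without 038A.

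The genes with the smallest p-value against the T-cell dogs were low in every Unknown dog. ENSCAFG00000003103 measured 5.61 to 8 CPM in the Unknown dogs and 218, 377 and 82.5 in the T-cell dogs, a difference of -5.04 ± 0.43 (SE) on the log2 scale (edgeR, adjusted p = 0.00634). The B-cell dogs ranged from 5.54 to 44.1 (median 9.91), with 029A the highest. ENSCAFG00000003432, described above, differed between Unknown and T-cell dogs by -5.05 ± 0.49 (SE) on the log2 scale (edgeR, adjusted p = 0.01). Without 024A the adjusted p of both genes was 0.038 by edgeR, and without 031A it was 0.0509, past the threshold.

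The genes higher than in T-cell dogs varied widely in the B-cell dogs. ENSCAFG00000005693 measured 44.5 CPM in 024A, 58.9 in 025A, 38.1 in 026A, 37.5 in 031A and 86.6 in 035A, and 1.39, 0.652 and 2.91 in the T-cell dogs (log2 difference 4.95 ± 0.58 SE, edgeR, adjusted p = 0.0234). The B-cell dogs ranged from 5.83 to 183 CPM (median 19), so the Unknown values were all inside the B-cell range. ENSCAFG00000013786 measured 47.8 CPM in 024A, 47.6 in 025A, 88.3 in 026A, 147 in 031A and 60.5 in 035A, and 3.69, 1.77 and 4.6 in the T-cell dogs (log2 difference 4.51 ± 0.57 SE, edgeR, adjusted p = 0.025). The B-cell dogs ranged from 6.29 to 66.5 CPM (median 18.3), and 026A and 031A exceeded all of them. Without 024A the adjusted p of both genes was 0.0581 by edgeR. By edgeR, the call of ENSCAFG00000005693 was also lost without 025A (adjusted p = 0.0514) and without 031A (0.0542), and that of ENSCAFG00000013786 without 026A (0.0684), 031A (0.0509), 035A (0.0642) or 036A (0.0618).

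The dogs were next compared over the 11733 genes whose mean count reached 50. Each gene was centred on its mean over the 14 dogs, and each pair of dogs was correlated across genes, which are not independent replicates. The 10 pairs of Unknown dogs had a median r of 0.0907 (range -0.113 to 0.351), and the 15 pairs of B-cell dogs had a median of 0.0218 (range -0.306 to 0.151). The 30 pairs of an Unknown with a B-cell dog had a median of -0.00405 (range -0.474 to 0.387). The 15 pairs of an Unknown with a T-cell dog had a median of -0.286 (range -0.437 to 0.0297). The correlation with the mean of the T-cell dogs was negative in every Unknown dog, from -0.476 (025A) to -0.294 (035A), and lay below that with the mean of the B-cell dogs, which ran from -0.187 (024A) to 0.0589 (031A). The correlation with the mean of the other Unknown dogs was the highest of the 3 in every Unknown dog, at 0.312 in 024A, 0.334 in 025A, 0.29 in 026A, 0.0965 in 031A and 0.0171 in 035A. The Unknown mean also gave the highest of the 3 in the B-cell dogs 027A (0.285), 033A (0.262), 034A (0.0682) and 037A (0.0325). It did not in 029A or 030A. This order therefore does not set the Unknown dogs apart from the B-cell dogs. Centring over the 14 dogs lowers correlations within groups as well as between them. Their signs and order are therefore given as description only.

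**Figure D3:**
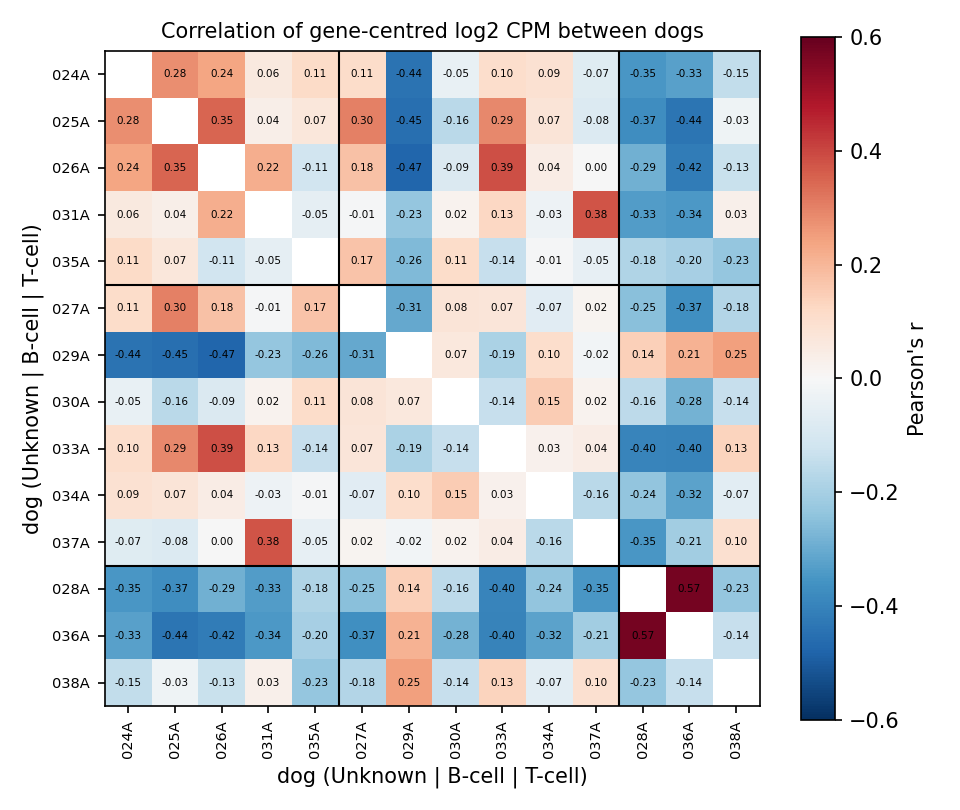
Pearson's r between each pair of the 14 dogs over 11733 genes, on log2 CPM centred for each gene, with dogs ordered as Unknown, B-cell and T-cell and lines between the groups. Unknown and B-cell dogs form mixed pairs of up to 0.387, dog 029A is negative with all 5 Unknown dogs, and 028A and 036A form the closest pair at 0.574.

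The nearest dog to each Unknown dog was an Unknown or a B-cell dog. Only 3 of the 14 dogs were T-cell dogs, so this does not by itself tell the lineage. Dog 024A was nearest to the Unknown dog 025A (r = 0.278), and 025A to the Unknown dog 026A (r = 0.351). Dog 026A was nearest to the B-cell dog 033A (r = 0.387), 031A to the B-cell dog 037A (r = 0.377) and 035A to the B-cell dog 027A (r = 0.173). The match of 031A with 037A rests on counts that disagree with the FPKM values of 037A. In the FPKM table the nearest dog to 031A was the Unknown dog 026A (r = 0.193), that of 024A was 026A and that of 035A was the B-cell dog 030A (r = 0.199), while 025A and 026A kept the same nearest dogs. Among the labelled dogs, 029A (B-cell) and 038A (T-cell) were nearest to each other in the counts (r = 0.246).

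Distances gave no separation of the Unknown from the B-cell dogs. They were taken over the 19040 genes tested between these groups, in log2 CPM scaled over these 11 dogs alone. The distance of a dog to the B-cell dogs other than itself, as the root mean square difference in log2 CPM per gene, was 1.04 in 024A, 1.08 in 025A, 0.953 in 026A, 0.869 in 031A and 1.04 in 035A. In the B-cell dogs it ranged from 0.884 to 1.07 (median 0.956). The means were 0.996 ± 0.0845 (SD, n = 5) and 0.967 ± 0.0683 (SD, n = 6), and the difference of 0.0299 was within the spread between dogs (exact permutation test, two-sided, p = 0.662). Leaving out single dogs gave 0.00443 (without 034A) to 0.0684 (without 033A). The mean distance between 2 Unknown dogs was 0.973 and that between 2 B-cell dogs was 0.967 (exact permutation test of the difference, two-sided, n = 5 and 6, p = 0.955). The Unknown dogs varied among themselves over the same scale as the B-cell dogs. Without 024A and 037A the difference in distance was 0.0145 (exact permutation test, two-sided, n = 4 and 5, p = 0.905).

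Over the 11733 genes in the 14 dogs, principal component 1 carried 36.6% of the variance and component 2 carried 13.1%. On component 1, the Unknown dogs scored from -42 (025A) to -20.7 (035A), 5 of the B-cell dogs from -29.4 to -15.9, and 029A scored 37.2. The T-cell dogs 028A and 036A scored 96.5 and 144, and 038A scored -8.28. Component 2 ordered the Unknown and B-cell dogs with little overlap. Dogs 024A, 025A, 026A and 035A scored 35.2, 32.2, 23.2 and 24.5, above every B-cell dog, and 031A scored -3.85. The B-cell dogs scored 13.5 (027A), 3.55 (033A), -14.6 (034A), -16.1 (037A), -27 (030A) and -80.8 (029A). The TMM factors, which scale each library, were also lower in the Unknown (0.773 to 1.06) than in the B-cell dogs with negative scores (1.13 to 1.39), and their part in this order was not tested. Complete-linkage clustering of the same values into 2 clusters set 028A and 036A apart from the other 12 dogs, so all 5 Unknown dogs fell with the 6 B-cell dogs and with 038A. With 3 clusters by complete linkage the Unknown dogs were divided, 031A going with 029A, 037A and 038A and the other 4 with 027A, 030A, 033A and 034A. Average linkage into 3 clusters did not divide them. It kept all 5 Unknown dogs with the 6 B-cell dogs and 038A, and only parted 028A from 036A.

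**Figure D4:**
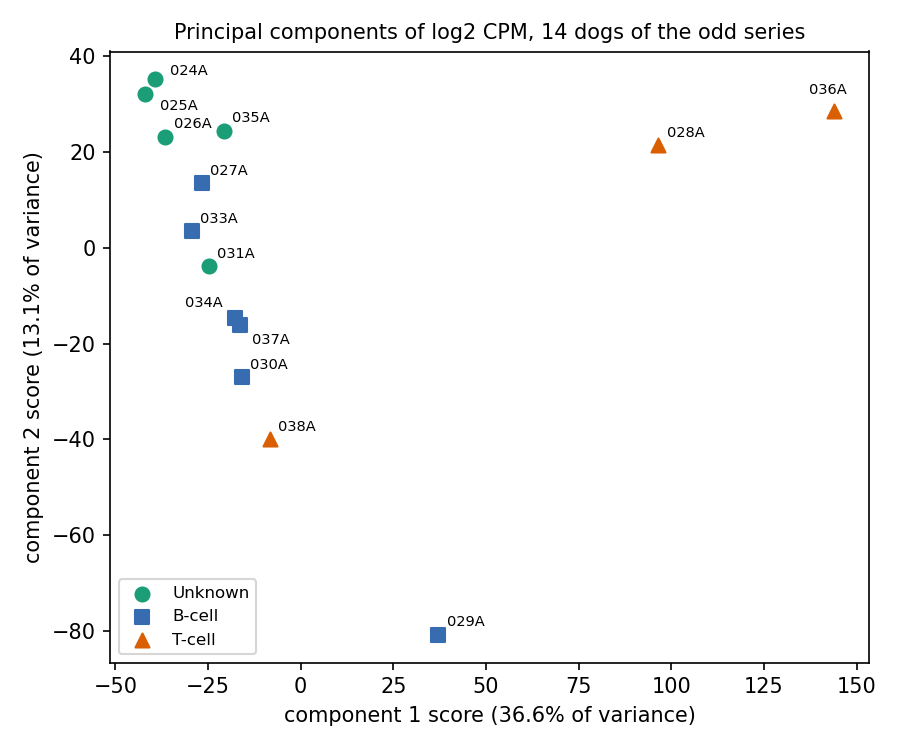
First and second principal component scores of log2 CPM for the 14 dogs of the odd series, with 1 point per dog and the share of variance on each axis label. The 5 Unknown dogs lie between -42 and -20.7 on the first component with 5 of the 6 B-cell dogs, apart from 028A and 036A, and 4 of them lie above all B-cell dogs on the second.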

How the data were processed

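Fine needle aspirates from 25 dogs were sequenced as short single reads. Per the labels and the study's methods, the authors used HISAT2 2.1.0 to align reads to the CanFam3.1 dog genome with Ensembl annotation and StringTie 1.3.3 to quantify genes. The deposited counts are raw whole numbers, and the program that made them, the strand setting and the handling of shared reads are not given in the sources used here. The deposited FPKM table came from the R package Ballgown and scales counts by gene length and library. Values of single genes can shift where genes overlap or have near-identical copies, and low counts are imprecise. The labels call the molecule total RNA, while the methods describe isolation of poly A-RNA.

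Dogs were grouped by the labels. The study's text counts fewer B-cell and more untyped dogs than the labels do, and the labels were followed. Genes kept by filterByExpr were compared with edgeR 4.0.16 (glmQLFit, glmQLFTest, TMM, R 4.3.3) within the 2 groups concerned, with Benjamini-Hochberg adjustment over all genes tested and a threshold of 0.05. The standard error is the log2 fold change divided by the square root of F. Log2 CPM used a prior count of 2. DESeq2 1.42.0 and limma 3.58.1 (trended, run on log2(FPKM + 1) where the mean FPKM reached 1) were alternatives. Positions, distances and totals were compared by exact permutation over dogs (Python 3.11.15, SciPy 1.17.1, NumPy 2.4.6). Positions were not recomputed for each split. The code was tested on simulated data.

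Since 0 identifiers had a symbol, the 2 identifiers of smallest p-value per direction of each comparison are named, the lineage marker lists were not run, and no sequences are shown. Columns of per-sample values not used numbered 0. The most alike pair of dogs, 028A and 036A, differed by far more than sampling noise (chi-square per degree of freedom 126 over 18742 genes), so no library was counted as a duplicate. The groups, lists and tests were chosen with earlier results of these data known.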

Additional observations from a re-analysis of the deposited data

Results flagged for a closer look

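Of 42 combinations of a measure and a group of 5 or 6 dogs, 8 held a dog whose gap to its nearest neighbour exceeded Dixon's 95% critical value. Chance alone marks about 1 in 20 groups of independent, normally distributed values. These measures overlap, and the genes among them were named by p-value in these data. No excess over chance can therefore be read from the 8. Dog 029A, labelled B-cell, was set apart by its position between the labelled groups (0.492, next 0.112), its first component (37.2, next -15.9) and its value of ENSCAFG00000003103 (44.1 CPM, next 14.3). The correlation of counts with FPKM values set apart 024A among the Unknown dogs (0.772, next 0.907) and 037A among the B-cell dogs (0.293, next 0.915). Dog 025A had the fewest genes with a count among the Unknown dogs (27622, next 29506) and the highest value of ENSCAFG00000010034 (112 CPM, next 32.1). Dog 034A had the highest value of ENSCAFG00000005693 among the B-cell dogs (183 CPM, next 65.8). The causes were not tested.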

How the results depend on the processing

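For Unknown against B-cell dogs, 20 of 23 alternatives gave 0 called genes. The exceptions were DESeq2 with 26, limma on log2(FPKM + 0.1) with 2, and the leave-one-out range of 0 to 2, in which leaving out 027A gave the 2. The genes at an unadjusted p under 0.05 ranged from 1397 (without 024A) to 3048 (without 033A) over single dogs. They numbered 1427 without 029A, 1511 without 025A, 1922 with all 25 dogs and the series as a term, 2001 with survival as a covariate, and 2016 after all libraries were drawn down to the smallest total.

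The reference comparisons were less stable. T-cell against B-cell dogs, with 8 calls, gave 1328 with DESeq2, 0 with upper quartile scaling and 111 without a filter on low counts. The count was 547 in 1 fit of 14 dogs, 5 with survival as a covariate, and 0 without 037A (024A is not in this comparison). Limma gave 2 on log2(FPKM + 1), 1 with a pseudocount of 0.1 and 1 without a filter, and leaving out single dogs gave 0 to 2051, with 27 without 029A, 2051 without 038A and 0 without any other dog. Unknown against T-cell dogs, with 401 calls, gave 1992 with DESeq2, 1269 in 1 fit of 14 dogs and 189 with survival as a covariate. The count was 2 without 024A (037A is not in this comparison). Limma gave 35, 8 and 4 in the same order of settings, and single dogs gave 0 to 2503. The causes were not tested.

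The position difference kept its sign and missed the threshold in all 20 alternatives (-0.308 to -0.0485, exact permutation p from 0.0873 to 0.805). The difference in distance to the B-cell dogs was -0.0288 on log2(FPKM + 1), against 0.0299 in the counts, and neither exceeded the spread between dogs (exact permutation p = 0.84 and 0.662). The difference in total counts kept its sign in all 12 alternatives. No paired analysis was possible because the groups hold different dogs. With 5 and 6 animals and totals from 9592039 counts, small differences, above all in genes with few counts, were not detectable.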
